A study of Homo sapiens with 9 samples.

Results

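Annexins are a family of proteins that bind negatively charged phospholipids when calcium is present, and 10 annexin genes were followed here in H69 cells, an immortalized human cholangiocyte line (cholangiocytes line the bile ducts). The genes were ANXA1, ANXA2, ANXA3, ANXA4, ANXA5, ANXA6, ANXA7, ANXA9, ANXA10 and ANXA11, chosen by name among the 61541 gene identifiers of the deposited count tables, with pseudogenes kept out. ANXA8 and ANXA13 were not in the list, so statements on annexin genes here cover the listed ones only. Each gene was read in 9 libraries of poly(A) RNA, 3 per group. All cells grew for 48 h before they were treated for 48 h, with the medium refreshed after 24 h. The Ctrl group received the vehicle, 10 µl of DMSO. The Acetazolamide group was given acetazolamide, which inhibits carbonic anhydrases, at 10 µM. The Laminin511-E8 group received 0.25 µg/cm2 of recombinant laminin 511-E8, the integrin-binding fragment of a basement membrane protein. A vehicle volume is recorded here for Ctrl only, and whether the other groups also received DMSO is not stated here. The sequenced cultures of each group were those with the most intact RNA. All libraries came from 1 line, so p-values measure the spread between cultures of that line and not between people.

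The annexin core is built from repeats that clamp calcium between protein and membrane, while the N-terminal tail differs from member to member and is where partner proteins attach. In epithelia, annexins are known for work at membranes: vesicle traffic, the repair of torn plasma membrane and the joining of membrane to the actin cortex. Annexin A11 is a target of autoantibodies in IgG4-related disease of the bile ducts, and earlier work ties it to ANO1, a calcium-gated chloride channel of secretory epithelia. The comparisons ask whether inhibiting carbonic anhydrase or adding laminin 511-E8 went with other annexin transcript levels than in Ctrl.

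The first coding bases of 3 members are shown because they encode the tails that set the members apart, those of ANXA2 and ANXA1 being the sites where S100 proteins dock. They are read 5′ to 3′ on the strand of the gene from GENCODE release 29 transcripts on GRCh38, with the start codon in capitals.
ANXA2: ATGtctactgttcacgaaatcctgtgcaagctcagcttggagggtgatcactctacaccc
ANXA1: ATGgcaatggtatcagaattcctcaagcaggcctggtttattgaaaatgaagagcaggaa
ANXA11: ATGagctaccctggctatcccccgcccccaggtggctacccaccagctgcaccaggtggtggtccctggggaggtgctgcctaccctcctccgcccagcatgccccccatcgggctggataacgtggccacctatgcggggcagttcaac
The ANXA2 stretch lies in 2 coding exons on the minus strand, at chr15:60386028-60386075 and chr15:60382430-60382441. The ANXA1 stretch lies in 1 exon on the plus strand, at chr9:73158536-73158595. The ANXA11 stretch lies in 2 exons on the minus strand, at chr10:80172807-80172861 and chr10:80170821-80170915. Its 150 bases had a GC content of 67.3%, against 48.7% and 46.7% for the first 150 coding bases of ANXA1 and ANXA2. Over whole coding sequences, ANXA11 had 59.3% GC and ANXA6 53.7%, whereas ANXA3, ANXA5 and ANXA1 had 42.8%, 44.2% and 44.7%. Most members had coding sequences of 960 to 1038 bases. The exceptions were ANXA6 with 2019 bases, whose protein carries a doubled annexin core, and ANXA11 and ANXA7 with 1515 and 1464 bases, whose proteins carry long tails.

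The windows just before the transcription start are shown for the most abundant member by counts, ANXA2, and for ANXA1 and ANXA10, which share a promoter type but not a level. They hold the 250 bases before the start in RefSeq (GRCh38.p14), on the strand of the gene, with each CG dinucleotide in capitals.
ANXA2: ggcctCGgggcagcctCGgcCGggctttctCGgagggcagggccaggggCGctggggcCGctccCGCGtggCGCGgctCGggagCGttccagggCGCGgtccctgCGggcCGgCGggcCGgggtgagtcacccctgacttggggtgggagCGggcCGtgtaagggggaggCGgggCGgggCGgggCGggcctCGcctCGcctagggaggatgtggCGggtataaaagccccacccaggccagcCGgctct
ANXA1: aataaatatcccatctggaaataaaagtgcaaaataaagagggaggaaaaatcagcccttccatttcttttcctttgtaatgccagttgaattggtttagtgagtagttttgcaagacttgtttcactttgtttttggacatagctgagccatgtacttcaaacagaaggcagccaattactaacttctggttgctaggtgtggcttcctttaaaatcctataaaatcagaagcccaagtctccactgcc
ANXA10: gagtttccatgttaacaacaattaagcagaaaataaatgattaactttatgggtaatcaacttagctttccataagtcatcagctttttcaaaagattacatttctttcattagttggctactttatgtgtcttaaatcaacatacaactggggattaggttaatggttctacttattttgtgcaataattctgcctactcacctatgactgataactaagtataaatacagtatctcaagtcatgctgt
They lie at chr15:60397987-60398236 on the minus strand, chr9:73151615-73151864 on the plus strand and chr4:168092287-168092536 on the plus strand. The ANXA2 window held 28 CG dinucleotides, and the ANXA1 and ANXA10 windows held 0. The letters TATAAA, the core of a TATA box, started 31 bases before the start in both ANXA2 and ANXA1 and 29 bases before it in ANXA10. They also began 61 bases before the start in 1 of the 3 windows of ANXA11. Searched on both strands of windows of 300 bases (250 before and 50 after the start), TATAAA was found in 11.5% of the 35116 RefSeq promoters. The ANXA2 window also held TGANTCA, the site type bound by AP-1 factors, which was found in 7.71% of promoters, and GGGCGG, the site type bound by Sp1, which was found in 45.0%. ANXA4 in both of its windows, ANXA5, and ANXA7 also held GGGCGG, as did 1 window each of ANXA6 and ANXA11. ANXA3 and ANXA9 held none of the 4 motifs searched, the fourth being CACGTG, which was found in 1 window each of ANXA4 and ANXA6 and in 7.26% of promoters. A match is a match of letters and not a measured binding site.

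Levels were compared as CPM, that is counts scaled to library size, with TMM-adjusted library sizes. In these cells 8 of the 10 members had at least 10 counts in every library, and ANXA9 and ANXA10 stood near the floor. ANXA2, the membrane and actin linker that pairs with S100A10, had 1166, 1169 and 1061 CPM in Ctrl. ANXA5, the phosphatidylserine binder used to detect dying cells, had 476, 516 and 414 CPM in Ctrl. ANXA2 stood above 99.6% and ANXA5 above 98.1% of the genes that had 10 or more counts in each Ctrl library. The 10 genes took 0.206% to 0.237% of all counts across the 9 libraries, and ANXA2 alone gave 51.6% ± 0.685 (SD, n = 3) of the counts of these 10 genes in Ctrl.

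Below these came ANXA3 with 192, 190 and 158 CPM in Ctrl, and ANXA7, which binds and aggregates secretory vesicles, with 117, 102 and 97.1 CPM. ANXA1, the mediator that glucocorticoids induce and that acts on formyl peptide receptors, had 108, 94.6 and 84.1 CPM. ANXA6 had 76.7, 80.4 and 82.8 CPM, ANXA11 had 77.1, 74.9 and 70.2 CPM, and ANXA4, an annexin of secretory epithelia, had 62.2, 57.7 and 57.5 CPM. All 8 therefore stood above 71.6% or more of the genes ranked. In the plot of annexin levels the 3 groups overlap for almost every member, and the break falls between these 8 genes and the other two.

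ANXA9, a divergent member, had 16, 11 and 10 counts in Ctrl, 23, 3 and 12 in Acetazolamide, and 3, 12 and 20 in Laminin511-E8, which is 0.121 to 0.784 CPM. ANXA10, known from stomach and bladder epithelium, had 1, 5 and 2 counts in Ctrl, 5, 1 and 2 in Acetazolamide, and 6, 3 and 6 in Laminin511-E8. Since 3 counts are the upper limit that a count of 0 allows, which is 0.0759 to 0.239 CPM depending on the library, ANXA10 cannot be placed far from none at this depth. ANXA10 did not pass the filter on low counts and was not tested. ANXA9 passed it and was tested on 3 to 23 counts per library.

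Levels of different genes were ordered per kb of annotated exon. In Ctrl, ANXA5 led with 154 ± 16.9 CPM per kb (SD, n = 3) and ANXA2 followed with 128 ± 6.98. The levels of ANXA7 and ANXA3 were 36.8 ± 3.58 and 35.1 ± 3.72 CPM per kb. These neighbours differed by less than their spread, with ANXA7 above ANXA3 in 2 of 3 libraries. ANXA1 had 20.9 ± 2.61, ANXA6 14.7 ± 0.563, ANXA11 8.70 ± 0.415 and ANXA4 5.35 ± 0.236 CPM per kb. Each of the other neighbouring pairs kept its order in 3 of 3 Ctrl libraries, and its means differed by more than the larger SD. The order of the first pair turned on the length used, because the annotated exons of ANXA2 sum to 8824 bases while its principal transcript has 1676. Per kb of that transcript ANXA2 stood first with 676 ± 36.7 CPM per kb and ANXA5 second with 266 ± 29.1, ANXA3 passed ANXA7, and ANXA4 passed ANXA11.

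The ANXA2 count has a further limit, since the pseudogenes ANXA2P1, ANXA2P2 and ANXA2P3 carry near copies of its sequence. Their counts came to between 5.33% and 6.02% of the ANXA2 counts in every library. The sources used here do not say how reads that match several genes were counted. The share was thus about the same in all 9 libraries.

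None of the 9 annexin genes tested passed the test after either treatment, and the data bound how large a change could have been. Across the 8 expressed members, the log2 fold change of Laminin511-E8 against Ctrl ran from -0.02 to 0.11, with 7 genes above 0 (8 with upper-quartile scaling and 5 with the GC trend described below removed) and a median of 0.04, where the median of all genes tested was -0.0037. In Acetazolamide against Ctrl it ran from -0.07 to 0.11, with 5 genes above 0 and a median of 0.03, where the median of all genes tested was 0.0055. The 95% intervals of the 8 members together spanned 0.772-fold to 1.36-fold in the first comparison and 0.764-fold to 1.38-fold in the second. In Laminin511-E8 against Acetazolamide they spanned 0.717-fold to 1.35-fold. Changes beyond those bounds lay outside each member's own interval. Some members had narrower intervals, such as ANXA2 with 0.931-fold to 1.25-fold in Laminin511-E8 against Ctrl. Changes inside a member's own interval could not be told from the spread between cultures. In bulk RNA, fewer cells that express a gene and less of its RNA per cell cannot be told apart.

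The test was edgeR's quasi-likelihood test on all 9 libraries with Benjamini-Hochberg adjustment over 15997 genes. It called 0 of the 9 annexin genes tested in each of the 3 comparisons at an adjusted p under 0.05, and the share of all genes called was 0% in each. The lowest adjusted p over all genes was 0.230, 0.999 and 0.745 in turn. At an unadjusted p under 0.05, 0 annexin genes were called in any comparison, against 2.84% of all genes in Laminin511-E8 against Ctrl, 1.87% in Acetazolamide against Ctrl and 2.21% in Laminin511-E8 against Acetazolamide. DESeq2 called 0.131% of all genes in the first comparison, 0.0438% in the second and 0.119% in the third, and limma voom called 0% in each. Neither tool called an annexin gene. DESeq2 gave ANXA9 no adjusted p in the third comparison.

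In the counts as deposited, ANXA2 was the member whose Laminin511-E8 libraries separated from Ctrl. Its level was 1222, 1219 and 1222 CPM in Laminin511-E8, and all 3 libraries stood above the highest Ctrl library at 1169 CPM. The Acetazolamide libraries, at 1181, 1066 and 1283 CPM, overlapped both. The difference of Laminin511-E8 from Ctrl was 0.11 on the log2 scale (SE 0.0954, 95% interval -0.10 to 0.32), which is 1.08-fold, with an edgeR adjusted p of 1.00. The value was 0.0677 with each library's GC trend removed, as described further on, and 0.0565 without Ctrl 3. As deposited, ANXA2 was the only one of 9 annexin genes tested whose Laminin511-E8 libraries all lay above Ctrl. So did those of 4.69% of all genes tested, and 8.65% of all genes separated in either direction. In Acetazolamide against Ctrl 0 of the 9 annexin genes separated in either direction, where 5.31% of all genes did. In Laminin511-E8 against Acetazolamide 0 of 9 did, where 6.13% of all genes did. With the GC trend removed, the ANXA1 libraries of Laminin511-E8 also lay above those of Ctrl, as did those of ANXA2. Relative to its own mean, ANXA1 then ran from 0.0039 to 0.182 in Laminin511-E8 and from -0.201 to -0.0123 in Ctrl. As deposited ANXA1 overlapped, with Laminin511-E8 2 at -0.123 and Ctrl 1 at 0.144. Its separation thus appeared only after the adjustment, which moved Laminin511-E8 2 to 0.182. The share of all genes that separated with the trend removed was not computed, so whether these separations were unusual cannot be said.

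ANXA11 had 77.1, 63.5 and 99.1 CPM in Acetazolamide and 72.9, 78.0 and 67.7 CPM in Laminin511-E8, beside 70.2 to 77.1 CPM in Ctrl. The acetazolamide-treated libraries lay on both sides of Ctrl, with a mean of 79.9 ± 18.0 CPM (SD, n = 3) against 74.0 ± 3.53. The log2 fold change was 0.11 for Acetazolamide (95% interval -0.24 to 0.46, adjusted p = 0.999 by edgeR) and -0.02 for Laminin511-E8 (95% interval -0.37 to 0.33, adjusted p = 1.00 by edgeR). ANXA11 was therefore neither higher nor lower beyond the spread between cultures.

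ANXA6, a regulator of membrane traffic, had the same shape. Its level was 85.0, 68.4 and 106 CPM in Acetazolamide and 73.7, 92.7 and 77.0 CPM in Laminin511-E8. Its log2 fold changes were 0.11 and 0.02, with 95% intervals of -0.25 to 0.47 and -0.34 to 0.38. ANXA6 and ANXA11 shared their highest library, Acetazolamide 3, and their lowest, Acetazolamide 2.

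ANXA1 had 89.2, 113 and 86.1 CPM in Acetazolamide and 108, 89.6 and 112 CPM in Laminin511-E8. Here Acetazolamide 2 was the highest library of the group, the reverse of ANXA6 and ANXA11. The log2 fold changes were 0.01 for Acetazolamide and 0.11 for Laminin511-E8, with 95% intervals of -0.33 to 0.34 and -0.22 to 0.44. ANXA3 had 173, 202 and 148 CPM in Acetazolamide and 195, 153 and 201 CPM in Laminin511-E8. Its low libraries, Acetazolamide 3 and Laminin511-E8 2, were the high ones of ANXA6.

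ANXA4 ranged from 52.0 to 65.6 CPM in Acetazolamide and from 50.6 to 65.7 CPM in Laminin511-E8, and ANXA5 from 404 to 473 and from 436 to 520 CPM. ANXA7 ranged from 106 to 115 and from 108 to 118 CPM. The annotated exons of ANXA7 overlap those of a gene on the other strand, AL512656.1. It had 81 counts over the 9 libraries, beside 23803 for ANXA7. How reads in the shared stretch were counted is not stated here, so their part in the ANXA7 counts is not known. All of these ranges overlapped Ctrl, and the log2 fold changes lay between -0.07 and 0.10. For ANXA9 the log2 fold change was -0.53 for Laminin511-E8 and -0.37 for Acetazolamide, but the intervals ran from -1.79 to 0.73 and from -1.62 to 0.87, so that a fall to 0.289-fold and a rise to 1.66-fold both lay inside the first.

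The levels of most annexin genes moved between libraries in a pattern that went with the GC content of their exons, least so for ANXA7 and ANXA2. For each library, the deviation of all genes from their mean was traced along GC content, and the difference of that curve between 55% and 40% GC is called its GC trend here. The trend was 0.69 on the log2 scale in Acetazolamide 3, 0.45 in Laminin511-E8 2 and -0.45 in Acetazolamide 2. In Ctrl it lay between -0.21 and 0.01. The GC-rich members ANXA6 (54.7% GC) and ANXA11 (54.0%) stood 0.37 and 0.40 above their own means in Acetazolamide 3 and 0.26 and 0.24 below them in Acetazolamide 2. ANXA3 (43.9%) stood 0.27 below its mean in the first and 0.18 above it in the second, and ANXA1 (39.5%) 0.18 below and 0.21 above.

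Over the 9 libraries, the correlation of a member's log2 CPM with the library's GC trend was 0.98 for ANXA6, 0.86 for ANXA11 and 0.56 for ANXA2. It was -0.93 for ANXA3, -0.84 for ANXA4, -0.79 for ANXA1, -0.75 for ANXA5 and -0.34 for ANXA7. These are descriptions, since each member is itself 1 of the genes along the curve and the values share libraries. When the trend was taken out of each library, the median SD of the 8 members fell from 0.158 to 0.0854 on the log2 scale, beside a fall from 0.258 to 0.157 for the median of all genes tested. The range of ANXA6 over the libraries went from 0.63 to 0.22 and that of ANXA11 from 0.64 to 0.28. The range of ANXA1 went from 0.42 to 0.48.

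With the trend removed, the edgeR intervals of the 8 members narrowed to between 0.843-fold and 1.31-fold for Laminin511-E8 against Ctrl and between 0.848-fold and 1.30-fold for Acetazolamide against Ctrl. The median SE fell from 0.144 to 0.0740 in both. This fit called 0.324% of the 15737 genes with known GC content in Laminin511-E8 against Ctrl, 0% in Acetazolamide against Ctrl and 0.159% in Laminin511-E8 against Acetazolamide, and again 0 of the 9 annexin genes in each. The number of calls in Laminin511-E8 against Ctrl changed with the libraries used. The 51 genes called became 2 without Ctrl 1 and 2 without Laminin511-E8 1, but 50 without Ctrl 2. Leaving out an Acetazolamide library, outside the comparison, gave 28 to 64. The 25 genes called in Laminin511-E8 against Acetazolamide became 0 without Acetazolamide 1 and 0 without Laminin511-E8 1, and 31 without Ctrl 2. A fit with fewer libraries can also call fewer genes, so these counts do not show which libraries the calls rested on. ANXA11 stood at 0.0017 on the log2 scale for Acetazolamide, with an interval of -0.17 to 0.18, and ANXA6 at 0.0018, with an interval of -0.15 to 0.15. Among the 8 members with at least 10 counts in every library, the difference from Ctrl furthest from 0 was that of ANXA1 in Laminin511-E8, 0.18 on the log2 scale (SE 0.0976, 95% interval -0.03 to 0.39, adjusted p = 0.717 by edgeR with the GC trend removed). ANXA1 in Acetazolamide was 0.17 (95% interval -0.05 to 0.38). The part of base composition in the level of any single member was not tested.

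**Figure D1:**
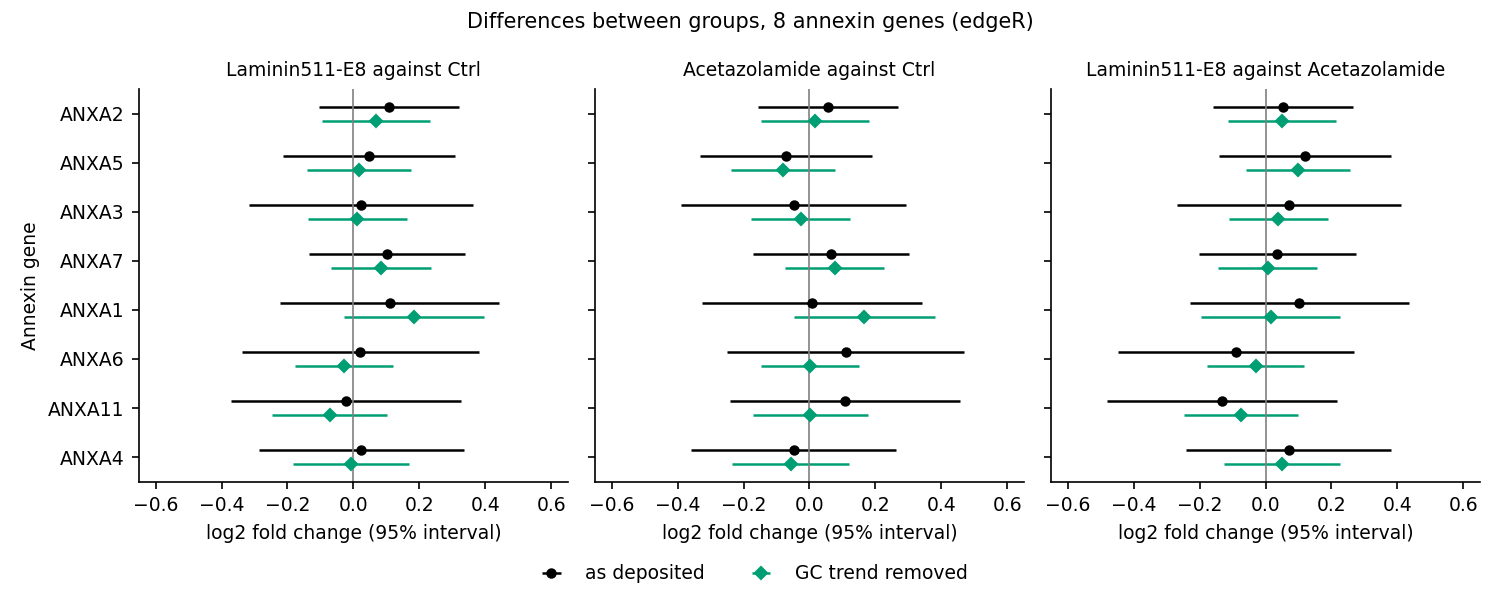
Log2 fold change of 8 annexin genes in the 3 comparisons, with 95% intervals, from edgeR on the counts as deposited (black circles) and after removal of the GC trend (green diamonds), 3 libraries per group. Every interval includes 0, and the green intervals are shorter, with a median SE of 0.0740 for Laminin511-E8 against Ctrl.

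Pairs of members are described by the Pearson correlation of log2 CPM over the 9 libraries. Of the 28 pairs of 8 members, 6 had r above 0.8 and 3 had r below -0.8. The strongest of the first kind was ANXA1 with ANXA3 at 0.90 (Spearman 0.92, and 0.85 without the 2 libraries furthest from the ANXA1 median). ANXA3 with ANXA6 was the strongest of the second kind, at -0.90. With the GC trend removed, 1 pair had r above 0.8 and 0 pairs had r below -0.8. That pair was ANXA1 with ANXA7, at 0.93 (Spearman 0.93, and 0.88 without the 2 furthest libraries), which had stood at 0.81 before. Both were highest in Acetazolamide 3, at 0.28 and 0.13 above their means, and low in Ctrl 2 and Ctrl 3.

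The genes whose levels followed ANXA11 most closely over the 9 libraries were ADCY1, GNAS, YEATS2, DHDDS and TRIM35, with r from 0.95 to 0.96. Their exons had 48.3% to 55.8% GC. For ANXA5, the highest member per kb of annotated exon, they were CSTF3, ERCC6L, SRBD1, CACYBP and DNAJA1, with r from 0.98 to 0.99 and 40.8% to 43.2% GC. Nothing about function is read from either set.

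The proteins that attach to annexins were followed as a list of 11 binding partners, of which 9 passed the filter on low counts and were tested. None of the 9 was called by edgeR in either direction, and their median log2 fold change was -0.03 for Laminin511-E8 and 0.11 for Acetazolamide. S100A10, which joins ANXA2 in a tetramer, had 202 ± 15.7 CPM in Ctrl, 228 ± 16.9 in Acetazolamide and 213 ± 8.29 in Laminin511-E8 (SD, n = 3). S100A11, a partner of ANXA1, had 69.8 ± 4.86, 75.3 ± 10.4 and 84.3 ± 5.18 CPM. Its Laminin511-E8 libraries, 81.1 to 90.3 CPM, lay above the Ctrl libraries, 64.7 to 74.4 CPM, as did those of 4.69% of all genes tested. The difference was 0.27 on the log2 scale (95% interval -0.01 to 0.55, adjusted p = 1.00 by edgeR, and 0.375 with the GC trend removed). In Acetazolamide against Ctrl 1 of the 9 partners separated, where 5.31% of all genes did. It was SEC31A, named here after its values were seen, with 159 to 161 CPM in Acetazolamide and 163 to 182 CPM in Ctrl. In Laminin511-E8 against Acetazolamide 1 of the 9 separated, AHNAK, which was lower in Laminin511-E8, where 6.13% of all genes separated.

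S100A6, a partner of ANXA11, had 292 ± 19.6, 286 ± 54.6 and 278 ± 28.6 CPM in the same order of groups. PDCD6, which encodes the calcium sensor ALG-2 that binds the tails of annexins A7 and A11, had 10.7 ± 3.21, 12.7 ± 1.77 and 13.5 ± 1.83 CPM. Its counts are uncertain because the table also lists a readthrough gene over the same exons. AHNAK, a giant scaffold tied to the ANXA2 and S100A10 complex, was the most abundant partner by CPM, with 3640 ± 436 CPM in Ctrl, and PDCD6IP had 267 ± 10.5 CPM. The chloride channel gene ANO1 had 0 counts in all 9 libraries, which allows up to 0.0759 to 0.239 CPM by counting error alone.

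Ratios within a library do not depend on its depth. The ANXA2 count was 5.38, 5.74 and 5.72 times that of S100A10 in Ctrl, 5.56, 4.74 and 5.22 times in Acetazolamide and 5.76, 5.93 and 5.50 times in Laminin511-E8. Laminin511-E8 overlapped Ctrl, and the low value was that of Acetazolamide 2. The ANXA11 count was 0.263, 0.241 and 0.258 times that of S100A6 in Ctrl and 0.278, 0.269 and 0.288 times in Acetazolamide. In Laminin511-E8 it was 0.276, 0.251 and 0.262 times. Every Acetazolamide ratio of this pair lay above every Ctrl ratio, and the Laminin511-E8 ratios overlapped both. Both genes of this pair are GC-rich, with 54.0% and 59.9% GC, and no difference of the ratio between groups was tested. The ANXA1 count was 1.27 to 1.53 times that of S100A11 in Ctrl, 0.987 to 1.65 times in Acetazolamide and 0.993 to 1.38 times in Laminin511-E8. These are ratios of counts and not of molecules, since the genes differ in length.

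**Figure D2:**
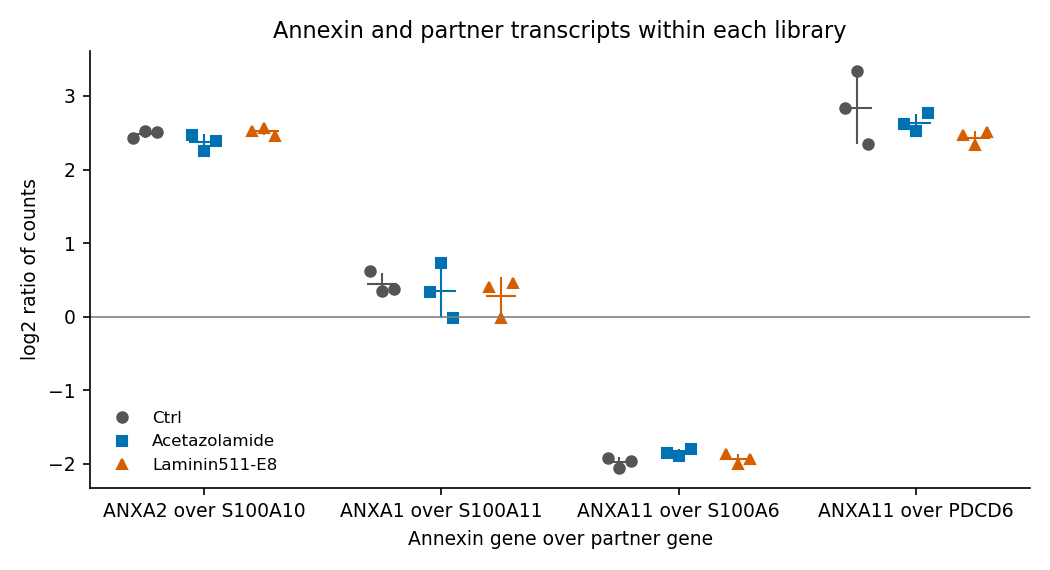
Log2 ratio of the counts of an annexin gene to those of a partner gene in each of the 9 libraries, with 1 point per library and a bar with a whisker for the mean and SD of each group (n = 3). ANXA2 over S100A10 lies between 2.24 and 2.57 in all libraries, and ANXA11 over PDCD6 spreads most in Ctrl, from 2.35 to 3.34.

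Other lists of the annexin system were read in the same fit. Of the 8 receptors and kinases around annexin A1, 6 were tested and 0 were called. EGFR, whose kinase phosphorylates annexin A1, had 1044 ± 28.1 CPM in Ctrl, and TRPM7, whose kinase domain also phosphorylates it, had 130 ± 9.92. The EGFR libraries of Acetazolamide, 951 to 1009 CPM, lay below those of Ctrl, 1017 to 1073 CPM. In that comparison 5.31% of all genes separated in either direction. The receptors themselves were singled out after their values were seen, and FPR1 had 11.4 ± 0.997 CPM in Ctrl and FPR2 0.218 ± 0.0833, while FPR3 had 1 count over the 9 libraries. Of 12 plasma membrane repair genes 11 were tested and 0 were called. They include the calpain CAPN2 at 233 ± 14.8 CPM, the ferlin MYOF at 218 ± 10.3, and the caveolar genes CAVIN1 and CAV1 at 466 ± 34.9 and 449 ± 7.76 CPM in Ctrl. CAPN2 was the 1 of these 11 that separated, lower in Laminin511-E8 against Acetazolamide, where 6.13% of all genes separated.

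Annexin A5 binds phosphatidylserine that scramblases expose and flippases return. Of 9 such genes 8 were tested and 0 were called. Their median log2 fold change was -0.06 for Laminin511-E8 and -0.11 for Acetazolamide, with 2 of 8 above 0 in each. The medians of all genes tested were -0.0037 and 0.0055. In Laminin511-E8 2 of the 8 lay wholly below Ctrl and 0 above, where 8.65% of all genes separated in either direction. In Acetazolamide 1 lay wholly below Ctrl and 0 above, where 5.31% of all genes separated. The most abundant were TMEM30A, the subunit that flippases share, at 339 ± 48.9 CPM in Ctrl, and the scramblase ANO6 at 141 ± 7.82. Of the 7 copines, other proteins that bind phospholipid with calcium, 6 were tested and 0 were called, with CPNE3 the most abundant at 215 ± 13.1 CPM.

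Total counts ran from 12529867 to 39518899 per library and the mitochondrial share from 9.43% to 16.2%, highest in Ctrl 2. The 5 cholangiocyte markers reported here had at least 10 counts in every library. Their summed level was 3067 to 3523 CPM in Ctrl, 3002 to 3523 in Acetazolamide and 2602 to 2778 in Laminin511-E8. KRT19 was the marker called lower in Laminin511-E8 with the GC trend removed (-0.46 on the log2 scale, adjusted p = 0.0123 by edgeR with the trend removed). In the counts as deposited it was not called (-0.45, adjusted p = 1.00 by edgeR). Summed levels of the 6 hepatocyte markers, the 5 leukocyte markers and the 4 endothelial markers stayed under 0.70, 0.23 and 3.3 CPM in every library. The 6 mesenchymal markers summed to 278 to 286 CPM in Ctrl, 263 to 298 in Acetazolamide and 317 to 351 in Laminin511-E8. Most of that sum was VIM, with 225 ± 4.03 CPM in Ctrl and 273 ± 24.1 in Laminin511-E8 (SD, n = 3), a difference of 0.28 on the log2 scale that was not called. The other 3 mesenchymal markers tested differed by -0.20 to -0.01 there. Whether these marker levels had a part in any annexin level was not tested.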

How the data were processed

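RNA of H69 cells was sequenced in 9 libraries, grouped by the sample titles. The values deposited by the authors are raw read counts for each gene. The submitters' processing notes name FastQC 0.11.9, Trimmomatic 0.39, HISAT2 2.2.1, HTSeq 0.11.0 and GRCh38. The sources used here do not say which annotation, strand setting or rule for multiply matching reads was used. Of 61541 identifiers, 61369 were named from a gene table. Members and gene lists were chosen with earlier results of these data known. All 10 members are named, with at most the 4 members of each other list that had the highest mean CPM and those called, the 5 genes most alike to ANXA11 and ANXA5, and in every case S100A10, S100A11, S100A6, PDCD6 and ANO1. SEC31A and the formyl peptide receptors were named after their values were seen.

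Counts were tested with edgeR 4.0.16 in R 4.3.3 (TMM, filterByExpr, robust quasi-likelihood, 9 libraries in 1 fit). DESeq2 1.42.0, limma 3.58.1, other scalings and filters, a replicate block, left-out libraries and removal of each library's GC trend (loess, span 0.3) were alternatives. Scripts were tested on simulated data. Lengths and GC content come from GENCODE release 29. CPM on the log2 scale used a prior count of 2. Depth was 12529867 to 39518899 counts per library. Intervals and floors cover counting error or spread between these cultures only. Replicate libraries differed by more than sampling noise, with a chi-square per degree of freedom of 5.43 or more. Of 9 same-numbered pairs of libraries across groups, 2 had deviations that correlated above 0.1, so the numbers were not treated as pairs.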

Additional observations from a re-analysis of the deposited data

How the results depend on the processing

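The 3 counts of annexin genes called, 0 each, were 0 under every alternative run: DESeq2, limma voom, other scalings, filters and spread estimates, a fit of 6 libraries, the replicate block, removal of the GC trend with and without the block, a threshold of 0.01 and each library left out. Under these alternatives the lowest adjusted p of an annexin gene was 0.479. With the replicate block the annexin count was 0 and the count over all genes 0 in each comparison, against 3 with the GC trend also removed in Laminin511-E8 against Ctrl, where removal alone gave 51. The correlation of deviations of same-numbered libraries ran from -0.65 to 0.24, which gives no pairing. The fits with the GC trend removed and a library left out, and the length of 1 principal transcript, were chosen after seeing the data.

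Signs of small differences changed in 22 of 27 log2 fold changes, none of which was called. With the GC trend removed, Laminin511-E8 against Ctrl became -0.0076 for ANXA4 and -0.029 for ANXA6, and -0.011 and -0.030 with the replicate block too. ANXA11 there became 0.0036 with upper-quartile scaling. ANXA1 in Acetazolamide against Ctrl became -0.0054 with limma voom and -0.029 with no filter, and ANXA9 in Laminin511-E8 against Acetazolamide 0.045 with limma voom. Leaving out 1 library at a time, with or without the GC trend, gave in Laminin511-E8 against Ctrl 0.0206 to 0.239 for ANXA1, 0.0509 to 0.141 for ANXA2, -0.0695 to 0.132 for ANXA3, -0.0558 to 0.129 for ANXA4, -0.0417 to 0.13 for ANXA5, -0.0907 to 0.0658 for ANXA6 and -0.121 to 0.0352 for ANXA11. Leaving out 1 library at a time, with or without the GC trend, gave in Acetazolamide against Ctrl -0.121 to 0.235 for ANXA1, -0.0568 to 0.124 for ANXA2, -0.163 to 0.0656 for ANXA3, -0.153 to 0.0124 for ANXA4, -0.169 to 0.0091 for ANXA5, -0.0544 to 0.254 for ANXA6, -0.0059 to 0.121 for ANXA7, -0.867 to 0.0916 for ANXA9 and -0.0773 to 0.251 for ANXA11. Leaving out 1 library at a time, with or without the GC trend, gave in Laminin511-E8 against Acetazolamide -0.0528 to 0.229 for ANXA1, -0.0256 to 0.121 for ANXA2, -0.0444 to 0.184 for ANXA3, -0.0062 to 0.175 for ANXA4, -0.234 to 0.0687 for ANXA6, -0.0308 to 0.0639 for ANXA7, -0.617 to 0.3 for ANXA9 and -0.275 to 0.0401 for ANXA11. In the order by level, ANXA2 ranked 1, ANXA5 2, ANXA3 3 and ANXA7 4 by CPM not divided by length and by the length of 1 principal transcript, and ANXA4 7 and ANXA11 8 by the latter. The order was the same without each Ctrl library in turn. Counts of 1 to 23 per library limit ANXA9 and ANXA10.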
